A study of Mus musculus with 6 samples.

Results

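The angiotensin and endothelin system was read in RNA-seq data of the right atrium (RA) of 21-day-old (P21) mice, as 9 genes chosen by symbol out of the 54093 in the table. They are the angiotensin precursor Agt, the converting enzyme Ace, the angiotensin receptors Agtr1a and Agtr2, the mineralocorticoid receptor Nr3c2, the endothelins Edn1 and Edn3, and the endothelin receptors Ednra and Ednrb. All mice were wild-type (WT) C57BL/6, male or female. One group of 3 libraries came from sham-operated mice, and the other group of 3 came from mice with volume overload (VO), made at P7 with a needle puncture that joined the abdominal aorta to the inferior vena cava. Each library is RNA of free wall myocardium, a mixture of cell types, and is named here by group and replicate. The labels do not say whether atria were pooled or whether each library is a separate animal, so p-values measure the spread between these libraries, which may be technical.

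Angiotensinogen is cut by renin to angiotensin I, and ACE, an enzyme of the endothelial surface, removes a dipeptide from it to give angiotensin II. Angiotensin II acts on the type 1 receptor, which couples to Gq and raises vascular tone and aldosterone release, and on the type 2 receptor, which is mostly a fetal receptor and often opposes the first. Aldosterone acts on the mineralocorticoid receptor, a nuclear receptor that binds DNA. Endothelin-1 is made by endothelial and endocardial cells and is released from its precursor by endothelin converting enzyme. It acts on the type A receptor of muscle cells and on the type B receptor, which in endothelial cells releases nitric oxide and clears the peptide.

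Ace was the tested member whose VO and sham libraries did not overlap, so the sequences before its starts are shown. The Ace gene has 2 annotated starts in RefSeq on GRCm38.p6. From textbook knowledge, the upstream start gives the somatic enzyme and the internal start gives the shorter testis enzyme, and a value per gene does not separate them. The 250 bases before each start are shown on the plus strand, with matches to a TATA box (TATAAA) and to a GC box (GGGCGG), searched on both strands, in capitals.

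Ace upstream start, chr11:105967698-105967947: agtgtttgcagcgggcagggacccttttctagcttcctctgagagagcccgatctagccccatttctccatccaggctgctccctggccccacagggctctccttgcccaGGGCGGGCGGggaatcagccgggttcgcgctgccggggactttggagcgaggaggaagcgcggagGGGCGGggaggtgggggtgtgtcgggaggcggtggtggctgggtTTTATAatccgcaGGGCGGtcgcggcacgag

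Ace internal start, chr11:105974939-105975188: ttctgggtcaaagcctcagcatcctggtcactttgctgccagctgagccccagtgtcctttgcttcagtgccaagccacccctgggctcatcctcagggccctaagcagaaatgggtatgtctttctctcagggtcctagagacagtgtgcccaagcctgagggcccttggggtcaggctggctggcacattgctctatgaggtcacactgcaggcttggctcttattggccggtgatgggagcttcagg

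The window at the upstream start held 4 GC boxes, of which those beginning at -140 and -136 overlap, and a TATA box on the opposite strand from -31 to -26, counted from the start. The window at the internal start held 0 matches to either motif. Of 32851 such windows in the table, 12.4% held TATAAA and 32.7% held GGGCGG. Among the 8 members with an entry, TATAAA was also found for Agt, and GGGCGG was also found for Nr3c2. A match describes letters only and says nothing of binding.

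The values are FPKM, fragments scaled by gene length and by a size for each library, which can be compared between genes as levels per length. That size was not the total of fragments on genes. It was 15557402 against a total of 16494342 in sham 1, and 18144117 against 16852482 in VO 1. The libraries held 15963082 to 17237903 fragments on genes. The 12627 genes with a mean of at least 1 FPKM were tested with limma on log2(FPKM + 0.1), two-sided, and adjusted p-values are over all of them. The label of the tissue was checked against markers. The 7 genes of an atrial cardiomyocyte list summed to 19478 to 25543 FPKM in sham and 9021 to 16817 FPKM in VO. Of these genes, Myh6, Tnnt2 and Actc1 belong to heart muscle in general, so the sum does not tell atrium from ventricle. The atrial gene Myl7 alone was at 5531 to 8501 FPKM in sham and 2586 to 5056 FPKM in VO. Of 3 ventricular markers, Irx4 was at most 0.259 FPKM, but Myl3 was read at 117 to 246 FPKM in sham and 83.8 to 121 FPKM in VO, and Myl2 was uneven, at 2.02 to 60.4 FPKM in sham and 1.54 to 20.6 FPKM in VO. Their part in the members' values was not tested. In bulk tissue, fewer cells of a type and less RNA per cell cannot be told apart. A pair of VO libraries stood apart. VO 1 held 239.6 FPKM of 5 summed macrophage markers against 81.4 to 117 FPKM in sham, and VO 3 held 528 FPKM of 5 summed adipocyte markers against 38.7 to 54.3 FPKM in sham. Ucp1, which marks brown fat, was at 0 in the other 5 libraries.

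In sham RAs the members' levels ran from the endothelin receptors down to Edn3. Ednrb was highest at 31.2 ± 4.68 FPKM (SD, n = 3), followed by Ednra at 23.8 ± 4.21, Agt at 9.27 ± 1.59, Ace at 5.55 ± 0.436, Nr3c2 at 5.10 ± 0.400, Agtr1a at 4.58 ± 0.513 and Edn1 at 3.82 ± 0.884 FPKM (SD). Agtr2, at 0.145 ± 0.0948 FPKM, and Edn3, at 0.0208 ± 0.0361 FPKM (SD), stayed under the filter. The ranges of Ace, Nr3c2, Agtr1a and Edn1 overlapped from each to the next, as did those of Agtr2 and Edn3, while the other neighbours in this order were apart. In VO the order was the same at the top and bottom, but Ace, at 8.41 ± 1.75 FPKM, stood before Agt, at 7.54 ± 2.14 FPKM (SD), and Agtr1a, at 4.92 ± 0.356 FPKM, stood before Nr3c2, at 4.39 ± 1.13 FPKM (SD), both with overlapping ranges.

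**Figure D1:**
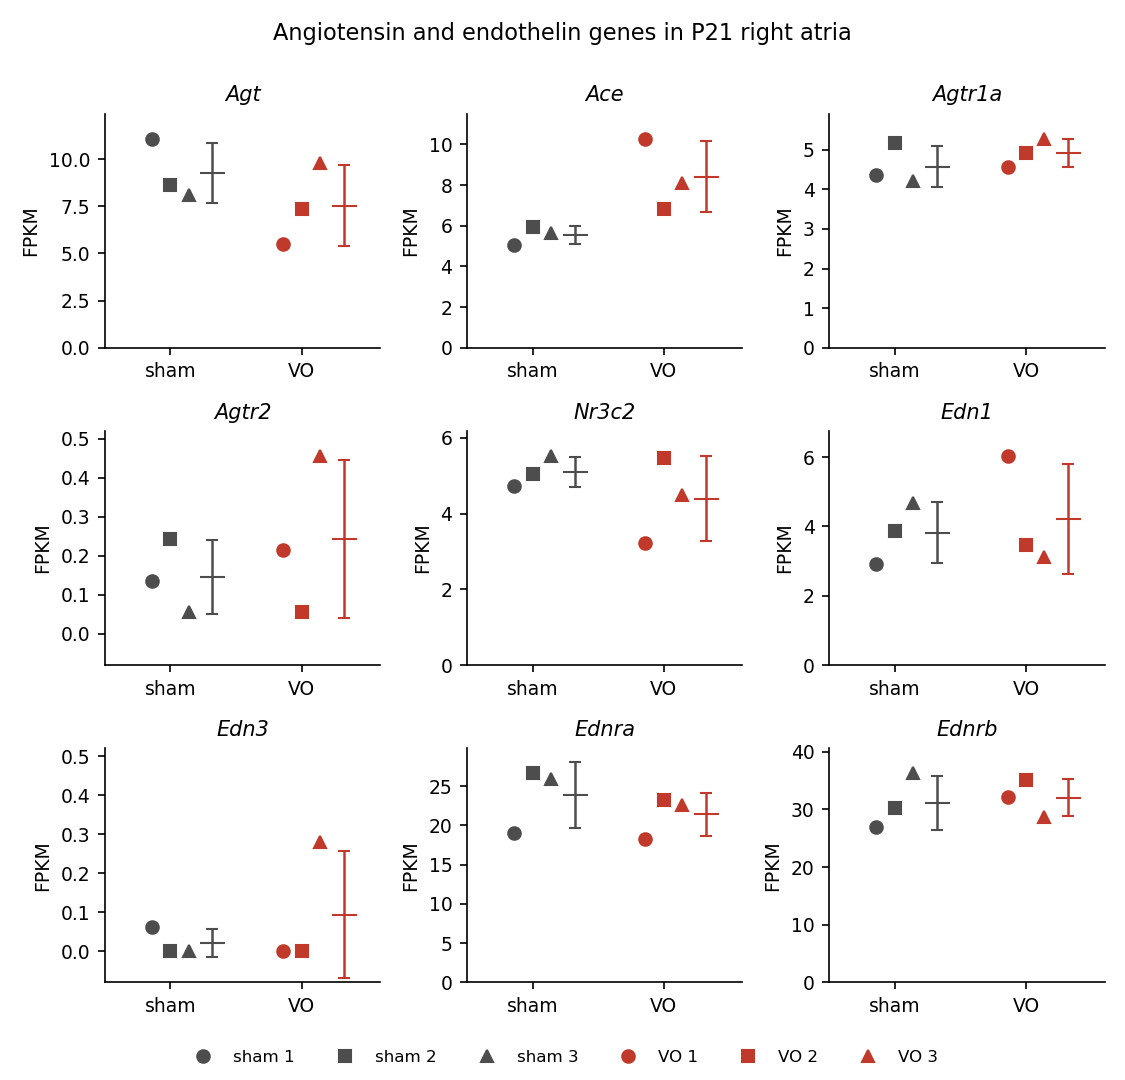
FPKM (vertical axes, linear, a separate scale for most genes) of the 9 genes in each of the 3 sham and 3 VO libraries, with symbols for libraries and bars for the mean ± SD of each group. Ace is the gene whose 3 VO points, from 6.82 to 10.3 FPKM, all lie above the sham points, and VO 3 holds the highest points of Agtr2 and Edn3.

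Of the 7 members above the filter, 0 passed an adjusted p of 0.05 in limma's test, where 0.00792% of all tested genes did. At an unadjusted threshold of 0.05, 1 member, Ace, was higher in VO and 0 were lower, against a background of 3.89% of tested genes higher and 8.08% lower, and the voom fit on fragments gave the same numbers. With TPM, which scales each library to a fixed total, the members' numbers were also 1 and 0, while 8.59% of all tested genes were higher and 3.85% lower. The VO and sham libraries did not overlap in 1 of the 7 genes, with VO higher, where 21.2% of all tested genes did not overlap, 8.25% with VO higher and 12.9% with VO lower. With 7 genes tested, 1 gene is 14.3%. Their log2 fold changes lay above 0 for 4 and below 0 for 3, with a median of 0.04 against -0.01 over all tested genes, of which 48.5% lay above 0.

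Ace (ENSMUSG00000020681, GRCm38, chromosome 11, 105967945 to 105989964, plus strand, protein-coding) was read at 5.07, 5.93 and 5.64 FPKM in sham 1, 2 and 3 and at 10.3, 6.82 and 8.12 FPKM in VO 1, 2 and 3. Every VO library was above every sham library, and VO 2 lay closest to sham. The ratio of the VO mean to the sham mean was 1.52, from 417 to 986 fragments per library. On the log2 scale the difference was 0.57 (standard error 0.16, 95% interval 0.19 to 0.96, limma's adjusted p = 0.391, unadjusted p = 0.00945). It was 0.42 without VO 1, whose Ace value was the highest, and 0.51 to 0.71 without any other library, with an unadjusted p-value of 0.0032 to 0.0337 in limma's fits.

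ACE is made by endothelial cells, by lung endothelium most of all, and by activated macrophages, so markers of these cells are given beside it. The 8 endothelial markers, among them Pecam1 and Cdh5, summed to 241 to 257 FPKM in sham and 251.2 to 266 FPKM in VO. The markers did not move alike. Cdh5 and Tie1 lay above sham in every VO library, Emcn lay below it, and the others overlapped. In a comparison chosen after the values were seen, the log2 ratio of Ace to this sum was -5.49 ± 0.13 in sham against -4.97 ± 0.31 in VO (SD, n = 3), without overlap, and differed by 0.52 (exact permutation test, two-sided, p = 0.1, the smallest that 3 against 3 allows). The 5 macrophage markers summed to 94.1 to 239.6 FPKM in VO and were highest in VO 1, the library with the most Ace. The 4 lung markers summed to 0.229 to 3.48 FPKM in sham and 2.92 to 8.52 FPKM in VO, and were also highest in VO 1; Sftpc and Sftpb, which mark lung epithelium, were at 0 in sham 3 alone. The part of macrophages or lung tissue in the Ace value was not tested. Gm11651, an antisense gene that overlaps Ace, reached at most 0.108 FPKM.

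Agt (ENSMUSG00000031980, chromosome 8, 124556534 to 124569706, minus strand) was read at 11.1, 8.62 and 8.12 FPKM in sham and 5.51, 7.33 and 9.77 FPKM in VO. VO 1 and VO 2 lay under the sham libraries, and VO 3 lay among them. The log2 fold change was -0.32 (95% interval -0.85 to 0.20, limma's adjusted p = 0.524). Adipocytes are a known source of angiotensinogen, and VO 3 was the library with the most adipocyte RNA. Leaving out VO 3 gave -0.52 with limma's adjusted p = 0.419 and an unadjusted p of 0.0364, and leaving out VO 1 gave -0.12. The part of adipose tissue in the VO 3 value was not tested, since leaving out a library removes everything that sets it apart.

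Renin and the aldosterone-making enzymes were listed at 0 in these atria. Ren1, which encodes renin, and Cyp11b1 and Cyp11b2, the last enzymes of corticosterone and aldosterone synthesis, had 0 fragments in all 6 libraries, as did Ctsg and the second type 1 receptor gene Agtr1b. Cyp11b1 overlaps Gml2 on the other strand, so its level cannot be read from this 0. For Ren1 a count of 0 allows up to 3 fragments, or 0.0998 to 0.116 FPKM per library. Atp6ap2, known as the prorenin receptor, was well read at 22.5 ± 0.946 FPKM in sham against 24.1 ± 3.15 FPKM in VO (SD, n = 3), giving a log2 fold change of 0.09 (adjusted p = 0.723, limma). Mas1, a G protein-coupled receptor of the pathway, was low, at 0.256 ± 0.0624 FPKM in sham against 0.201 ± 0.0527 FPKM in VO (SD).

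Other peptidases of the pathway were tested beside Ace. Nln, which encodes neurolysin, an enzyme that cuts angiotensin I, was read at 2.24, 2.75 and 1.77 FPKM in sham and 3.15, 3.18 and 2.996 FPKM in VO, without overlap, a log2 fold change of 0.47 (limma's adjusted p = 0.410). Anpep, aminopeptidase N, had 11.2 ± 2.04 FPKM in sham against 13.7 ± 0.817 FPKM in VO (SD), also without overlap, with a log2 fold change of 0.29 (adjusted p = 0.442, limma) that was 0.14 without sham 1. Enpep, aminopeptidase A, which makes angiotensin III, had 5.30 ± 0.969 and 6.14 ± 1.35 FPKM (SD) with overlap. Cma1, the mast cell chymase that can replace ACE, had 1.32 ± 0.636 FPKM in sham against 1.67 ± 1.49 FPKM in VO (SD), and its highest value, 3.35 FPKM, was in VO 3. Of the 26 genes of the renin, angiotensin and aldosterone list, 16 were tested. Of these 13 had a log2 fold change above 0, where 48.5% of all tested genes did. That number was 10 without sham 3 or without VO 1, and 11 without VO 3 or with quantile normalization. At an unadjusted p under 0.05, 2 were higher and 0 were lower, beside 3.89% and 8.08% of all tested genes, 0 passed an adjusted p of 0.05 in limma's test, and the median was 0.10. Without sham 1, sham 3, VO 1 or VO 3, 1 was higher, and without VO 3, 1 was lower. Members are part of this list.

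Agtr1a (ENSMUSG00000049115, chromosome 13, 30336441 to 30382867, plus strand), the main type 1 receptor gene of rodents, was read at 4.36, 5.16 and 4.21 FPKM in sham and 4.57, 4.91 and 5.28 FPKM in VO. The groups overlapped through sham 2, and the log2 fold change of 0.10 had a 95% interval of -0.19 to 0.40 (limma's adjusted p = 0.697), the narrowest of the 7 tested members. Agtr1b is a near copy, and how reads shared by both were counted is not given in the sources used here. Agtrap, whose product binds the type 1 receptor and draws it into the cell, had 8.91, 7.55 and 7.94 FPKM in sham and 9.28, 8.79 and 8.598 FPKM in VO, with overlap.

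Agtr2 (ENSMUSG00000068122, chromosome X, 21484544 to 21489164, plus strand) rested on few fragments: 7, 14 and 3 in sham and 13, 3 and 25 in VO, or 0.135, 0.244 and 0.0554 FPKM and 0.215, 0.0553 and 0.457 FPKM. VO 3 was highest and the groups overlapped. In a fit of all genes with a mean of at least 0.1 FPKM its log2 fold change was 0.37 with a standard error of 0.61 (limma's adjusted p = 0.821). Agtr1a exceeded Agtr2 in all 6 libraries, by a log2 ratio of 4.32 ± 0.43 in sham against 4.06 ± 0.88 in VO (SD), which differ by -0.27 (exact permutation test, two-sided, p = 0.7). That difference was 0.13 without VO 3.

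Nr3c2 (ENSMUSG00000031618, chromosome 8, 76899442 to 77245012, plus strand) was read at 4.73, 5.04 and 5.52 FPKM in sham and 3.22, 5.47 and 4.50 FPKM in VO. VO 1 was lowest and VO 2 lay within the sham range. The log2 fold change was -0.24 (95% interval -0.70 to 0.22, limma's adjusted p = 0.579). Leaving out VO 1 gave -0.04, and leaving out VO 2 gave -0.41. Hsd11b2, which protects the mineralocorticoid receptor from glucocorticoids by inactivating them, was read with at most 12 fragments, at 0.0878 ± 0.102 FPKM in sham against 0.172 ± 0.203 FPKM in VO (SD). Hsd11b1, which works the other way, had 1.13 ± 0.189 and 1.19 ± 0.132 FPKM (SD), giving a log2 fold change of 0.07 (adjusted p = 0.918, limma).

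Edn1 (ENSMUSG00000021367, chromosome 13, 42301476 to 42307990, plus strand), the endothelin of blood vessels and endocardium, was read at 2.91, 3.88 and 4.68 FPKM in sham and 6.03, 3.47 and 3.13 FPKM in VO. VO 1 was the highest of the 6 libraries, while VO 2 and VO 3 lay within the sham range. The log2 fold change of 0.10 had a 95% interval of -0.56 to 0.76 (limma's adjusted p = 0.883), the widest of the 7 tested members, and was -0.18 without VO 1 and -0.08 without sham 1. Edn2 had at most 4 fragments in a library. Edn3 (ENSMUSG00000027524, chromosome 2, 174760619 to 174784042, plus strand), a ligand of the type B receptor that neural crest cells need, had 4 fragments in sham 1, 19 in VO 3 and 0 in the other 4 libraries, where a count of 0 allows up to 0.0402 to 0.0448 FPKM. Its 0.281 FPKM in VO 3 therefore rests on a single library, and such a limit covers counting error only. VO 3 also held 42.3 FPKM of 5 summed Schwann cell and neural crest markers, against 5.82 to 6.48 FPKM in sham; their part in the Edn3 and Agtr2 values was not tested. Mme, which encodes neprilysin, a peptidase that degrades both angiotensins and endothelins, was at 2.96 FPKM in VO 3 and at 0.0903 to 0.256 FPKM in the other libraries, and is named after its values were seen.

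Ednra (ENSMUSG00000031616, chromosome 8, 77663031 to 77724464, minus strand) was read at 19.0, 26.6 and 25.9 FPKM in sham and 18.3, 23.2 and 22.6 FPKM in VO. Sham 1 lay with the VO libraries. The log2 fold change was -0.15 (95% interval -0.54 to 0.25, limma's adjusted p = 0.685), and was -0.30 without sham 1. Ednrb (ENSMUSG00000022122, chromosome 14, 103814625 to 103844402, minus strand) was read at 27.0, 30.2 and 36.2 FPKM in sham and 32.1, 35.1 and 28.7 FPKM in VO. All VO values lay inside the sham range, and the log2 fold change was 0.04 (95% interval -0.29 to 0.38, limma's adjusted p = 0.906). It was -0.05 without sham 1 and -0.03 without VO 2. The intervals of both receptors with all libraries stayed within 1 log2 unit of 0, as did those of the other tested members.

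Ednrb exceeded Ednra in all 6 libraries. The log2 ratio of Ednra to Ednrb was -0.51, -0.18 and -0.48 in sham and -0.81, -0.59 and -0.34 in VO. The difference of -0.19 was within the spread (exact permutation test, two-sided, p = 0.4). Ece1, the converting enzyme for endothelin-1, was the most abundant gene of the endothelin list at 40.3 ± 3.49 FPKM in sham against 39.8 ± 7.86 FPKM in VO (SD, n = 3), with a log2 fold change of -0.03 (adjusted p = 0.940, limma). Ece2 was listed at 0 in all libraries, as was Gm49333, a gene model on the same strand that overlaps it, so its level cannot be read. Of the 8 genes of this list, 4 were tested, 3 of them members; 0 passed at an unadjusted p under 0.05 or an adjusted p of 0.05 in limma's test. Reads of Ednra and of 4933431K23Rik, an overlapping gene on the other strand at 1.90 to 4.91 FPKM, cannot be told apart where they overlap, since strand in counting is not given in the sources used here.

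**Figure D2:**
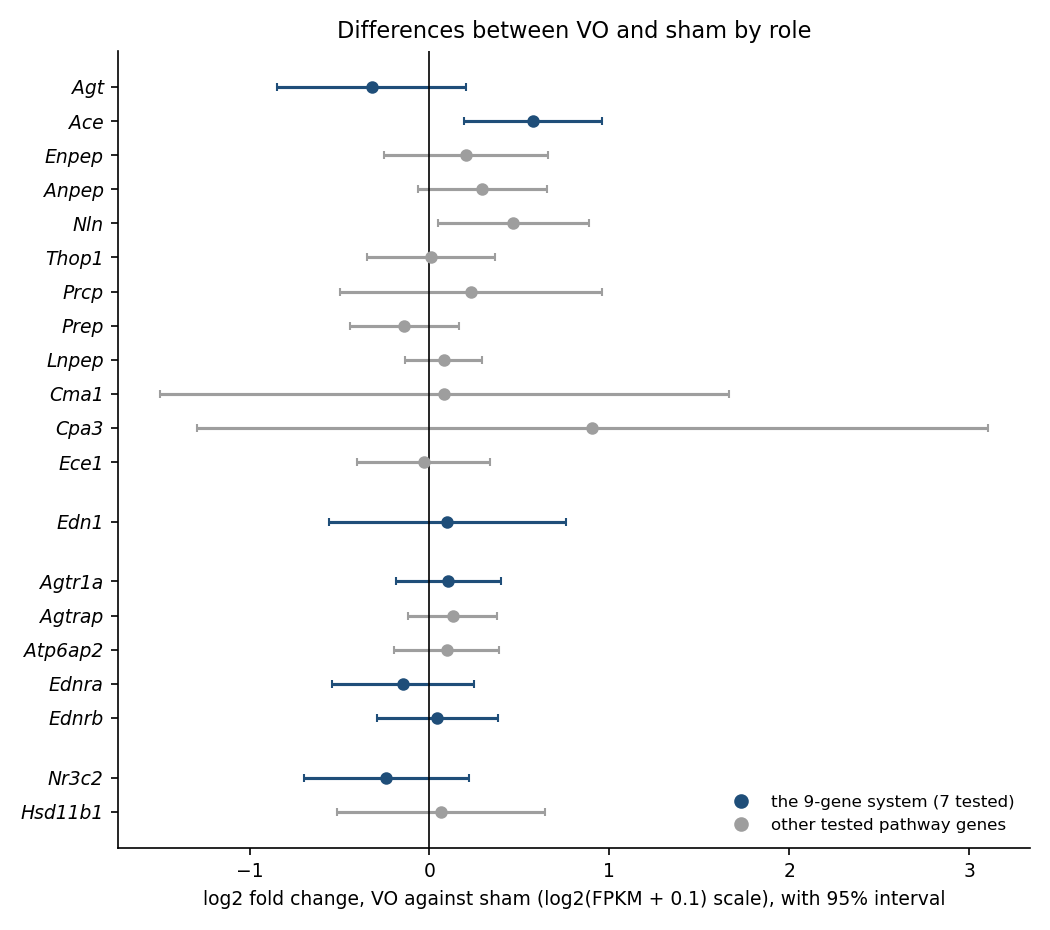
Log2 fold change of VO against sham on the log2(FPKM + 0.1) scale (horizontal axis) with its 95% interval from limma, for the 7 tested members in blue and 13 other tested pathway genes in grey, ordered as substrate and enzymes, ligand, receptors and partners, and mineralocorticoid genes. The intervals of Ace, 0.19 to 0.96, and of Nln, 0.05 to 0.89, do not reach 0, and those of the receptors all cross 0.

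VO 1 was the highest or the lowest library for 5 of the 7 tested members, and sham 1 was for 4, while VO 2 was for 0. VO 1 held the highest Ace and Edn1 and the lowest Agt, Nr3c2 and Ednra. Leaving out VO 1 brought the log2 fold changes of Ace, Agt, Nr3c2 and Ednra nearer to 0 and took that of Edn1 below it. VO 1 and sham 1 were also the libraries with the most red cell RNA, with 7726 and 6164 FPKM of 3 summed red cell markers against 638 to 2162 FPKM in the other 4 libraries, and its part in the members' values was not tested.

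**Figure D3:**
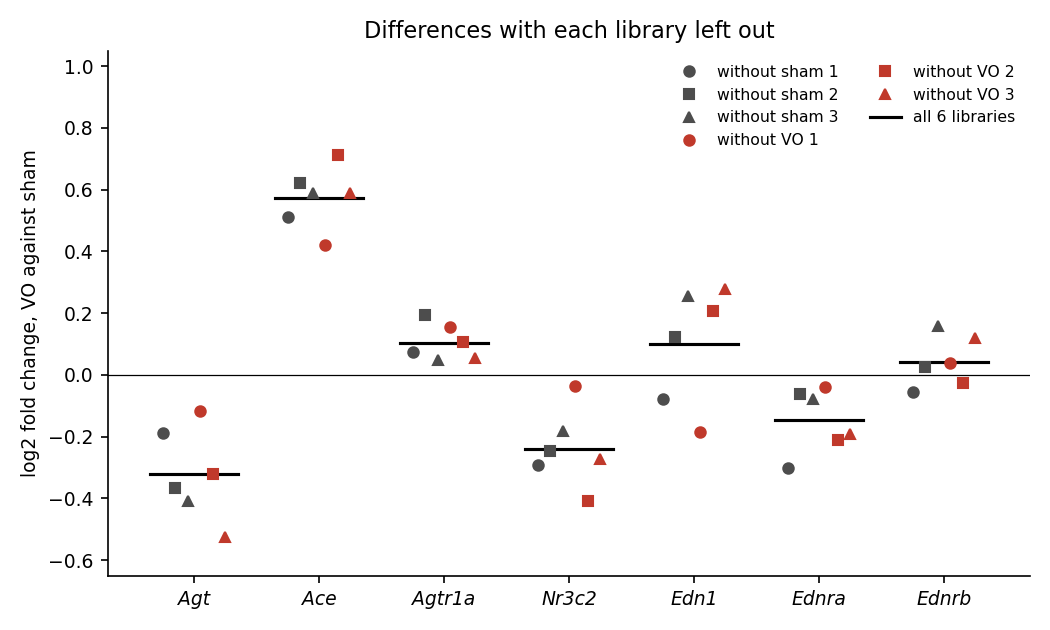
Log2 fold change of VO against sham (vertical axis) for the 7 tested members, with all 6 libraries (black lines) and with each library left out (symbols). Ace stays between 0.42 and 0.71, and Edn1 and Ednrb cross 0.

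Genes downstream of these receptors were described from lists. In the list of Gq and related signalling genes, 27 of 29 were tested. Of these 22 had a log2 fold change above 0, where 48.5% of all tested genes did. Across the alternatives that number ran from 19, without VO 1, to 24, with TPM. Of these 27, 2 were higher and 1 was lower at an unadjusted p under 0.05, beside 3.89% and 8.08% of all tested genes, 0 passed an adjusted p of 0.05 in limma's test, and the median was 0.12. With TPM, where the median of all tested genes was 0.13, that of the list was 0.26, with 7 higher and 0 lower, beside 8.59% and 3.85% of all tested genes. Without sham 2, 0 genes of the list were higher, and without VO 2, 4 were; with the replicate number in the fit 1 was higher and 0 were lower. Rgs5, a brake on Gq signalling in pericytes, had 73.2, 64.6 and 69.8 FPKM in sham and 94.4, 79.1 and 109.9 FPKM in VO, without overlap, a log2 fold change of 0.44 (limma's adjusted p = 0.404). The 5 pericyte markers summed to 44.7 to 49.6 FPKM in sham and 48.8 to 56.9 FPKM in VO. Among them Pdgfrb and Notch3 lay above sham in every VO library, while Kcnj8, Abcc9 and Cspg4 overlapped. The part of pericytes in the Rgs5 value was not tested. Itpr2, an inositol trisphosphate receptor that releases calcium, had 3.07 ± 0.305 FPKM in sham against 4.01 ± 0.326 FPKM in VO (SD), giving a log2 fold change of 0.37 (adjusted p = 0.406, limma). Arrb2, an arrestin that ends receptor signalling, had 5.98 ± 0.307 and 9.62 ± 4.47 FPKM (SD) and was highest, at 14.7 FPKM, in VO 1. Rcan1, a target and inhibitor of calcineurin, had 24.4, 22.1 and 24.8 FPKM in sham and 18.5, 20.5 and 19.8 FPKM in VO, below sham in every library, a log2 fold change of -0.28 (limma's adjusted p = 0.408).

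All 8 tested genes of the 10 known mineralocorticoid receptor targets had a log2 fold change below 0 (6 of 8 with TPM). Over all tested genes 48.5% lay above 0. Nedd4l, at -0.005, was nearly unchanged. Lcn2 and Scnn1a stayed under the filter, with higher means in VO and overlapping groups. Lcn2 had a mean of 0.171 FPKM in sham against 0.693 FPKM in VO, with 1.66 FPKM in VO 1. Scnn1a had a mean of 0.314 FPKM in sham against 0.395 FPKM in VO, with 0.667 FPKM in VO 1. The median of the tested genes was -0.31, while 1 gene was lower at an unadjusted p under 0.05, beside 8.08% of all tested genes. In limma's test 0 passed an adjusted p of 0.05. Without VO 1 the median was -0.07, with 5 of 8 below 0, and with TPM it was -0.17. Without sham 1, sham 3 or VO 1, 0 were lower at the unadjusted threshold, and without VO 2, 2 were. Several of these genes are also targets of the glucocorticoid receptor. Sgk1, a kinase that raises sodium channel activity and the best known target of aldosterone, had 24.8, 18.7 and 21.4 FPKM in sham and 15.0, 17.2 and 18.03 FPKM in VO, without overlap, a log2 fold change of -0.36 (limma's adjusted p = 0.410). Tsc22d3, also called Gilz, had 102.8 ± 5.95 FPKM in sham against 72.2 ± 28.8 FPKM in VO (SD), giving a log2 fold change of -0.60 (adjusted p = 0.435, limma) that was -0.24 without VO 1, which stood at 41.1 FPKM. Ndrg2 had 241 ± 16.8 FPKM in sham against 189.7 ± 34.1 FPKM in VO (SD), again without overlap.

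Because Nr3c2 acts on DNA, the windows before the starts were searched for the hormone response element. Its product shares this element with the glucocorticoid receptor, so a match does not point to either of them. A palindrome of the hormone response element (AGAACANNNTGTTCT, its own reverse complement) was found in 3 of 32851 windows, or 0.00913%, and 1 of them precedes a start of Sgk1, which has 6 annotated starts. It lies from -189 to -175, shown in capitals on the plus strand.

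Sgk1, chr10:21993640-21993889: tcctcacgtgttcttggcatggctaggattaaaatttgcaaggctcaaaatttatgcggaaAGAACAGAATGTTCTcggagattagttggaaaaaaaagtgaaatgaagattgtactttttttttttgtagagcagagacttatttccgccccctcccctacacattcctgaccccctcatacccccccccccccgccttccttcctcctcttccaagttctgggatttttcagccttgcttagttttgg

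None of the 8 members with an entry held the palindrome in these 250 bases, and Ednrb held the half-site AGAACA, as did 16.1% of all windows. Which start of Sgk1 was used was not measured.

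**Figure D4:**
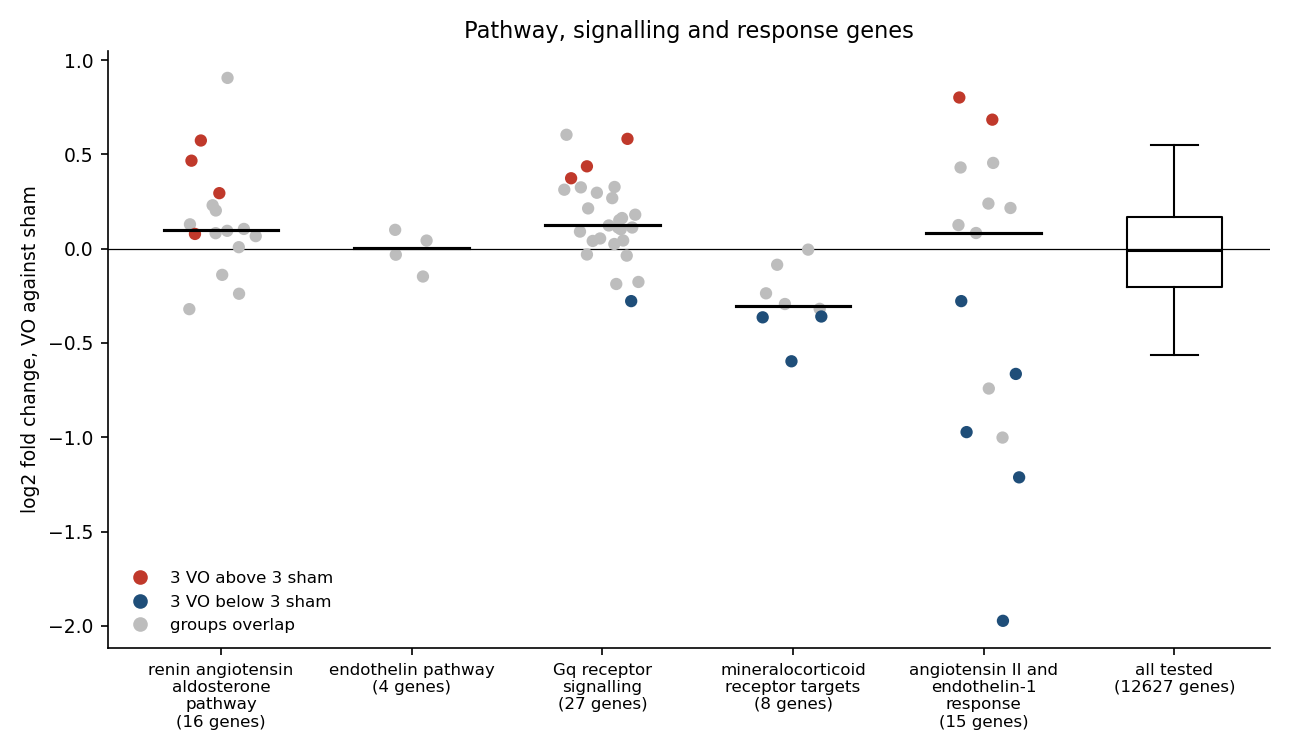
Log2 fold change of VO against sham (vertical axis) for the tested genes of 5 lists, with black lines for medians, and a box for all 12627 tested genes (quartiles, whiskers from the 5th to the 95th percentile). Red and blue points mark genes whose 3 VO libraries all lie above or all below sham. The tested mineralocorticoid receptor targets lie at or below 0 (2 of 8 are above 0 with TPM). The response genes spread from -1.97 to 0.80.

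Genes often induced in heart cells by angiotensin II or endothelin-1 were split. Of 17 such genes, of which Rcan1 is also in the Gq list, 15 were tested. Of these 8 had a log2 fold change above 0 and 7 below, where 48.5% of all tested genes lay above 0. The median was 0.08 and was -0.24 without VO 1. At an unadjusted p under 0.05, 1 was higher and 5, Rcan1 among them, were lower in VO, beside 3.89% and 8.08% of all tested genes. Without VO 1, 0 were higher and 4 were lower, and without VO 2, 3 were higher and 6 were lower. Nppb, the natriuretic peptide gene, fell from 566 ± 34.9 to 145 ± 23.2 FPKM (SD, n = 3), giving a log2 fold change of -1.97 (limma's adjusted p = 0.042), and was the 1 gene of the lists, and of all tested genes, past the adjusted threshold; with quantile normalization, the replicate number or Xist in the fit, or any 1 library left out, 0 genes of the list passed. Ankrd1, a stretch-responsive gene of the sarcomere, had 1807 ± 211 FPKM in sham against 785 ± 148 FPKM in VO (SD), giving a log2 fold change of -1.21 (adjusted p = 0.275, limma). Ctgf, a matrix-linked growth factor, had 214, 204 and 278 FPKM in sham and 77.2, 160.4 and 129 FPKM in VO, a log2 fold change of -0.97 (limma's adjusted p = 0.391). Fn1, fibronectin, was higher in each VO library, with 14.8, 22.3 and 24.7 FPKM in sham and 52.4, 28.7 and 28.8 FPKM in VO, a log2 fold change of 0.80 (limma's adjusted p = 0.407) that was 0.51 without VO 1. Postn, periostin, had 36.1 ± 2.88 FPKM in sham against 64.0 ± 36.8 FPKM in VO (SD), without overlap, and its log2 fold change of 0.68 was 0.25 without VO 1. All 7 genes of the atrial cardiomyocyte list, of which Nppa is also in this response list, had log2 fold changes below 0, with a median of -0.81. Of these markers 4 were lower at an unadjusted p under 0.05, beside 8.08% of all tested genes, and 0 passed the adjusted threshold in limma's test. Their part in these values was not tested.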

How the data were processed

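The authors sequenced NEBNext Ultra libraries as paired-end reads, aligned them with HISAT2 2.0.5, counted them per gene with featureCounts 1.5.0-p3 and deposited FPKM per gene and library; GRCm38 (mm10) is the build in the submitters' processing notes, and the annotation release is not given in the sources used here. The coordinates of all 9 members were identical to GENCODE M21. One incomplete line was left out. Values above 0, multiplied by gene length, were whole multiples of 1 step in each library (100% within a tolerance of 0.01), which gave back fragments. Median-of-ratios factors of the deposited FPKM were equal in all libraries, so values were used as given.

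The members and lists were chosen with earlier results of these data known. Genes were filtered to a mean FPKM of at least 1, transformed as log2(FPKM + 0.1) and compared by limma 3.58.1 under R 4.3.3 (lmFit, then eBayes with trend), two-sided, without covariates; p-values were adjusted over all tested genes by Benjamini-Hochberg, and a fold change on this scale understates that of low genes. The fit was also run on simulated fragments, with the same relative spread for all genes and known changes larger than those of the tested members. That run therefore does not tell how well changes of the members' size are found in the real libraries. The methods of the study used DESeq2 on the authors' own counts, which were not analysed here. Fragments given back from FPKM were fitted with voom as an alternative. The paper reported many more genes past an adjusted p of 0.05, in both directions, than the 1 of 12627 in limma's test. That no member passed therefore describes the fits made here, and does not show that the members were unchanged. Ratios were compared with exact permutation tests (scipy 1.17.1), where 3 libraries against 3 cannot go below p = 0.1. Named are the members, their direct partners, and in each list the 3 genes of smallest p per direction without overlap. Alternatives were other pseudocounts, filters, TPM, quantile normalization, eBayes without trend, a replicate block, an Xist covariate (for sex), voom on fragments and leaving out each library. Promoter sequences are from RefSeq on GRCm38.p6, which had entries for 8 of 9 members. One partner gene and its ratio are not reported here.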

Additional observations from a re-analysis of the deposited data

How the results depend on the processing

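None of the 7 tested members passed an adjusted p of 0.05 in limma's test under any alternative tried, where the adjusted p of Ace ran from 0.243 to 0.693, and Ace was higher at an unadjusted p under 0.05 in each of them. When single libraries were left out, the number of members lower at an unadjusted p under 0.05 ran from 0 to 1 (Agt, without VO 3). The number without overlap ran from 1 to 2. The shares of all tested genes with a library left out are not given here, for the members or the lists. Groups of fewer libraries are also apart more easily, so these counts are not a result about the members. The difference in the log2 ratio of Agtr1a to Agtr2 ran from -0.74 to 0.13. The log2 fold change of Edn1 then ran from -0.18 to 0.28 and that of Ednrb from -0.054 to 0.16; Ace, Agt, Agtr1a, Nr3c2 and Ednra kept their sign in all alternatives. With TPM the median over all genes tested was 0.13 on the log2 scale, against -0.01 with FPKM, and the log2 fold change of Ednra was -0.01. With the replicate block the adjusted p of Ace was 0.601 in limma's test and its log2 fold change 0.57, and the block changed no call of a member. Whether the replicate numbers pair the libraries was not settled. After removal of group means, the correlations across genes of same-numbered libraries were -0.108, 0.0112 and -0.0292. These cannot decide it, since other pairs of libraries were not compared. Dividing Ace by the endothelial markers was chosen after seeing the data. At 3 to 25 fragments for Agtr2 and 0 to 19 for Edn3, depth limits both genes.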
